A study of Mus musculus with 57 samples.

Results

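Microglia, the resident macrophages of the brain, secrete growth and trophic factors that act on neurons, glia, vessels and other immune cells. The genes followed here were the 10 of this kind on a list of symbols: Igf1, Pdgfa, Pdgfb, Vegfa, Vegfb, Osm, Hbegf, Gdf15, Inhba and Bdnf. The rule takes them by name, and the list was drawn up with earlier results of these data known. All 10 were listed in both deposited count tables, among 50565 genes in the table of the sex experiment and 53278 genes in the table of the LPS experiment.

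RNA came from CD11b-positive cells of adult mouse brain, labelled as microglia, from wild-type (WT) mice and littermates deficient in P2RY12 (KO), a purinergic receptor that marks resting microglia. In the sex experiment 18 animals were compared, with 4 WT and 5 KO mice of each sex and no treatment given in the labels. In the LPS experiment 33 libraries of WT and KO mice carried the treatment label LPS, for an intraperitoneal dose of 1 mg/kg of lipopolysaccharide, a component of bacterial cell walls that sets off inflammation, or the label ns, which the labels do not spell out. The knockout allele, the age in weeks, the sex of the mice in the LPS experiment and the time from injection to collection were not given in the sources used here. CD11b is also carried by neutrophils, monocytes and macrophages at the brain's borders, so the selection does not separate microglia from these cells. In bulk RNA, fewer cells of a type and less RNA per cell cannot be told apart.

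The members signal through different receptors. Igf1 encodes insulin-like growth factor 1, which supports myelination and neuronal survival, and Bdnf encodes brain-derived neurotrophic factor, a ligand of TrkB linked to synapse formation. Pdgfa and Pdgfb encode the chains of platelet-derived growth factor, which act on oligodendrocyte precursors and on pericytes. Vegfa is the main driver of vessel growth and permeability and Vegfb is a related ligand of VEGF receptors. Hbegf encodes a membrane-anchored ligand of the EGF receptor that is released by ADAM proteases. Osm (oncostatin M) is a cytokine of the interleukin-6 family, Inhba encodes the subunit of activin A, and Gdf15 encodes a stress-induced ligand of the receptor GFRAL.

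Levels are given as CPM, each count relative to the library's total after scaling by the trimmed mean of M values (TMM), differences as log2 fold changes with their standard error (SE), and calls as adjusted p under 0.05 in edgeR's quasi-likelihood test with Benjamini-Hochberg adjustment over all genes tested. Levels of different genes were not compared with each other, because the deposited gene lengths are whole spans. Depth ran from 58.54 to 318.5 megacounts per library in the sex experiment and from 15.91 to 168.4 megacounts in the LPS experiment, where all but WT ns 4 held 45.31 megacounts or fewer. P2ry12, the targeted gene, was at 3006 to 5927 CPM in the WT animals and 309.2 to 526.2 CPM in the KO animals of the sex experiment, so the counts of the targeted gene were lower but not absent in KO. The sum of 10 microglia markers (9 in the table of the sex experiment) was 23940 to 38980 CPM in the sex experiment, and each marker was detected in every group.

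Several libraries of the LPS experiment stood apart. In the 4 WT libraries whose library name carries the number 2, P2ry12 and the LPS-induced acute-phase gene Saa3 went against the labels. Saa3 was at 1783 CPM in the library labelled WT ns 1 and 2488 CPM in that labelled WT ns 5, with P2ry12 at 481.5 and 926.4 CPM. Saa3 was at 1.59 CPM in the library labelled WT LPS 1 and 3.20 CPM in that labelled WT LPS 6, with P2ry12 at 4457 and 12110 CPM. In the other libraries Saa3 was at 1.52 to 64.22 CPM in WT ns and at 1416 to 9709 CPM in WT LPS. P2ry12 was at 3509 to 5401 CPM in these WT ns libraries and at 400.1 to 1061 CPM in these WT LPS libraries. These 4 libraries were left out of the main comparison and are given apart. WT LPS 8 and WT LPS 9 differed by little more than counting noise (their chi-square per degree of freedom was 1.86, and the other pairs of a group had 8.32 or more) and were counted as 1 sample, which left 6 WT ns, 6 WT LPS, 8 KO ns and 8 KO LPS samples. Among these, WT LPS 7, KO ns 5, KO ns 6 and KO LPS 5 had a median correlation of 0.889, 0.938, 0.872 and 0.857 with their group over genes that are not members, against 0.977 to 0.993 for the others. The share of mitochondrial counts was 6.74%, 2.69%, 8.55% and 5.62% in these 4 libraries and 0.787% to 1.81% in the others. Among the libraries given apart, WT LPS 6 and WT ns 5 had correlations of 0.861 and 0.879 with the group of their label. Their mitochondrial shares were 7.46% and 3.03%. WT LPS 1 and WT ns 1 had correlations of 0.951 and 0.953 and mitochondrial shares of 1.31% and 1.36%.

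The promoters of 3 of the 5 members called lower with LPS in WT are shown, and those of Hbegf and Pdgfb are not. They were taken by the WT call, not by a shared response, and Vegfa was not called in KO. RefSeq's promoter table (build GRCm38.p6) held 7 of the 10 members. Each sequence is the 250 bases before the start, 5′ to 3′ on the gene's strand, and capitals mark matches on either strand to GAGGAA, the PU box read by the myeloid factor Spi1, or to GGGCGG, the GC box read by Sp factors. The Igf1 window is chr10:87860861-87861110 on the plus strand. The Vegfa window, at the most upstream of 2 listed starts, is chr17:46032378-46032627 on the minus strand. The Vegfb window is chr19:6987652-6987901 on the minus strand.
Igf1: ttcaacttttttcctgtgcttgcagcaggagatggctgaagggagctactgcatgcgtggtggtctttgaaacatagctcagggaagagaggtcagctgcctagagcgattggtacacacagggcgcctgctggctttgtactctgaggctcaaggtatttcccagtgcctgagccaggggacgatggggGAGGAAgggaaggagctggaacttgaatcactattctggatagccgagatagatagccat
Vegfa: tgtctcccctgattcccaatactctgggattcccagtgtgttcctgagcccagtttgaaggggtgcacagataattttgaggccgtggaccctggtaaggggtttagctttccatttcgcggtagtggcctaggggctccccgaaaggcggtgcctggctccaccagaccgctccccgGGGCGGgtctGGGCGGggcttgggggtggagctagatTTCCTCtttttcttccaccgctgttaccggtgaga
Vegfb: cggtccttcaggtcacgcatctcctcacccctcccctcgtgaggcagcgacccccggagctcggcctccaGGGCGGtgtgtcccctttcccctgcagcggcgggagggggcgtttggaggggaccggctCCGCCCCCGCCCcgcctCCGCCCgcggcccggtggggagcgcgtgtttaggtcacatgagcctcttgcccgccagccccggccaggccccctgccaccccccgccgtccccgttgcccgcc
The Igf1 window held 1 PU box and no GC box, the Vegfa window 1 PU box on the reverse strand and 2 GC boxes, and the Vegfb window 4 GC boxes and no PU box. Of 32851 listed promoter windows of this length, 23.3% held a PU box and 32.7% a GC box. The 3 windows were 52.8%, 59.2% and 76.4% G and C. These matches describe the letters only.

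The first question was how the members differed between LPS and ns in WT microglia. Of 8 members with enough counts to be tested, 5 were called and all 5 were lower with LPS: Igf1, Hbegf, Vegfa, Vegfb and Pdgfb. None was called higher. Over all 16088 genes tested, 30.9% were called and 15.9% were called lower. The median log2 fold change of the 8 members was -1.82, against -0.01 over all genes. The group ranges of the same 5 members did not overlap, which was so, in the direction lower with LPS, for 14.1% of all genes tested.

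Igf1 had the largest fold of the members. It was at 6.23, 8.85, 9.43, 10.6, 14.8 and 18.6 CPM in the 6 WT ns libraries. In the 6 WT LPS samples it was at 0.204, 0.482, 0.876, 1.48, 2.39 and 4.65 CPM. Every WT LPS sample lay under every WT ns library. The log2 fold change was -2.95 (SE 0.43), or 7.71-fold lower with LPS (edgeR's quasi-likelihood test, adjusted p = 7.74e-06). The WT LPS values rested on 6 to 100 counts per sample.

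Igf1 in KO followed the same order. Its lowest, median and highest values were 3.87, 8.89 and 15.7 CPM in KO ns and 0.438, 1.03 and 2.73 CPM in KO LPS. The KO groups did not overlap either, in a comparison in which 3.99% of all genes were lower without overlap. The log2 fold change was -2.87 (SE 0.37), or 7.33-fold lower (edgeR, adjusted p = 1.1e-06). The difference between the genotypes in the LPS response of Igf1 was 0.07 (SE 0.54, edgeR, adjusted p = 0.964).

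Hbegf was the other member lower without overlap in both genotypes. In WT ns its lowest, median and highest values were 2.78, 4.06 and 4.73 CPM. In WT LPS they were 0.506, 0.804 and 1.55 CPM. The log2 fold change was -2.24 (SE 0.32), or 4.72-fold lower (edgeR, adjusted p = 4.83e-06). The highest of the WT LPS values came from WT LPS 7, a library of low correlation with its group. In KO, Hbegf was at 2.03, 3.29 and 4.12 CPM with ns and at 0.170, 0.393 and 0.942 CPM with LPS. The KO difference was -2.67 (SE 0.28), or 6.36-fold lower (edgeR, adjusted p = 4.18e-08). The LPS samples held 12 to 48 Hbegf counts each in WT and 4 to 33 in KO, so single values are imprecise.

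The VEGF genes were lower with LPS as well, Vegfb in both genotypes and Vegfa by the test in WT alone. Vegfb was at 31.01, 35.68 and 61.63 CPM (lowest, median and highest) in WT ns and at 4.01, 13.5 and 16.7 CPM in WT LPS. Its log2 fold change in WT was -1.69 (SE 0.38), or 3.22-fold lower (edgeR, adjusted p = 0.0013). In KO, Vegfb was at 7.14, 50.5 and 60.7 CPM with ns and 4.01, 18.9 and 21.6 CPM with LPS, where the ranges overlapped. The overlap came from KO ns 5 and KO ns 6, at 7.14 and 19.1 CPM, while the other 6 KO ns libraries held 44.0 CPM or more. The KO difference was -1.31 (SE 0.33), or 2.48-fold lower (edgeR, adjusted p = 0.0030).

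Vegfa was at 5.13, 5.84, 7.43, 7.43, 12.2 and 14.9 CPM in the WT ns libraries. In the WT LPS samples it was at 1.12, 1.25, 1.499, 1.57, 2.51 and 2.82 CPM. The WT groups did not overlap, and the log2 fold change was -2.30 (SE 0.49), or 4.93-fold lower (edgeR, adjusted p = 0.00069). In KO, Vegfa was at 0.603, 3.65 and 6.95 CPM with ns and at 0.426, 2.59 and 4.05 CPM with LPS, and the ranges overlapped. The KO difference was -0.87 (SE 0.41) and was not called (edgeR, adjusted p = 0.112). The test of the difference between the responses gave 1.43 (SE 0.62, unadjusted p = 0.029, edgeR, adjusted p = 0.74), so a difference between genotypes in the Vegfa response was not called.

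Pdgfb was lower with LPS by less than the genes above. Its lowest, median and highest values were 220.4, 241.9 and 393.6 CPM in WT ns and 97.3, 131.3 and 159.3 CPM in WT LPS. The WT groups did not overlap, and the log2 fold change was -1.04 (SE 0.33), or 2.05-fold lower (edgeR, adjusted p = 0.020). In KO it was at 54.8, 252.2 and 265.7 CPM with ns and 30.8, 163.0 and 193.1 CPM with LPS, with overlap through KO ns 5 and KO ns 6. The KO difference was -0.56 (SE 0.29, edgeR, adjusted p = 0.152).

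**Figure D1:**
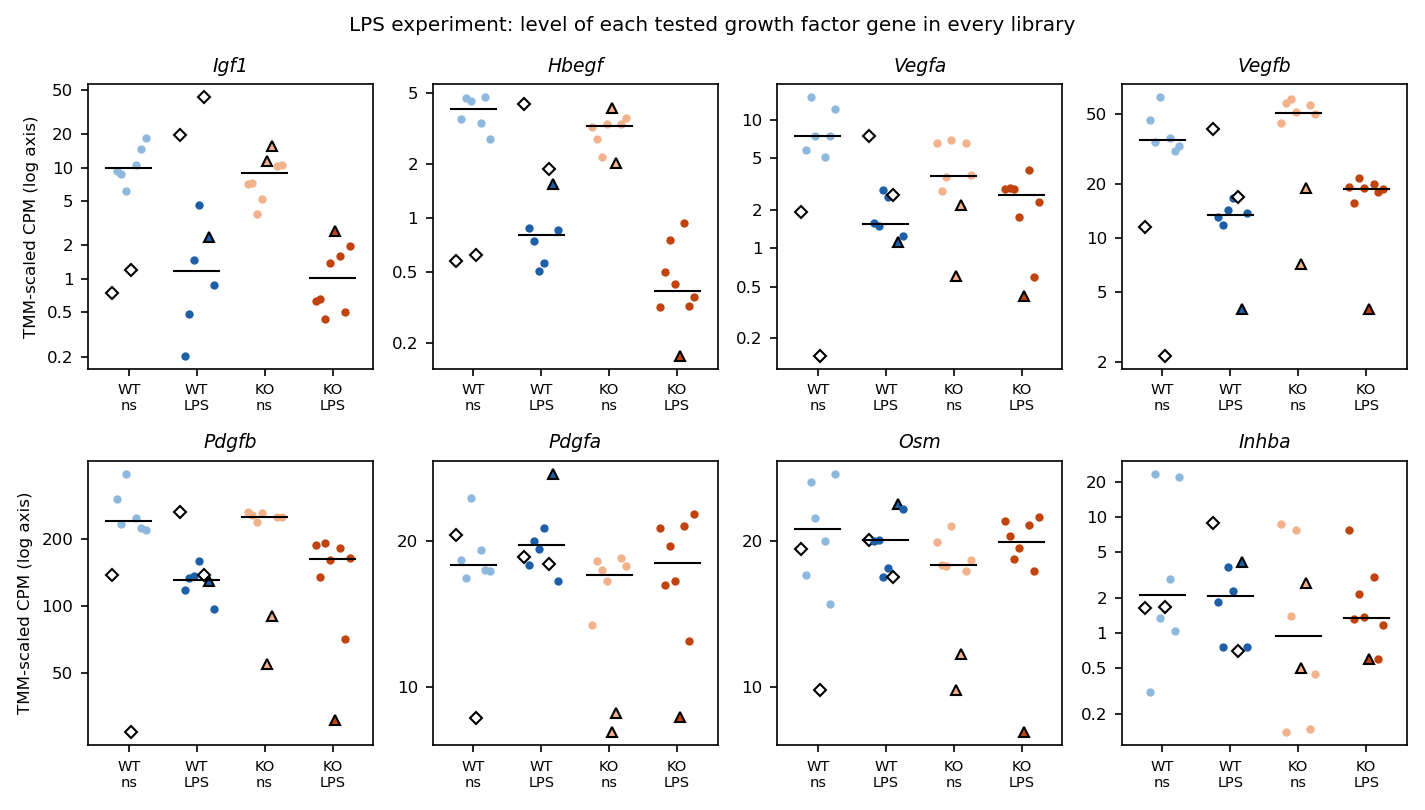
Level of each tested member in every library of the LPS experiment, as TMM-scaled CPM on a log axis, by group, where circles are libraries, triangles the 4 libraries of low correlation with their group, open diamonds the 4 WT libraries of number 2 under their labels, and lines the median without the diamonds. Igf1 and Hbegf lie lower with LPS in both genotypes with no overlap, and the Igf1 diamonds lie in or beyond the range of the opposite treatment.

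In KO, 3 members were called and all 3 were lower with LPS: Igf1, Hbegf and Vegfb. Of all genes tested, 28.9% were called in KO and 15.6% were called lower. The median log2 fold change of the 8 members was -0.72, against -0.02 over all genes. Without the 4 libraries of low correlation, the same 5 members were called lower in both genotypes, with 28.4% of all genes called lower in WT and 29% in KO. In that fit Vegfa in KO was at -0.998 (SE 0.33, edgeR, adjusted p = 0.015) and Pdgfb in KO at -0.69 (SE 0.17, edgeR, adjusted p = 0.0013).

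Pdgfa and Osm were not called in either genotype. Pdgfa was at 16.8, 17.9 and 24.6 CPM in WT ns and 16.6, 19.7 and 27.6 CPM in WT LPS, with a log2 fold change of 0.11 (SE 0.22). In KO the Pdgfa difference was 0.23 (SE 0.19). Osm was at 14.8, 21.1 and 27.5 CPM in WT ns and 16.9, 20.0 and 23.8 CPM in WT LPS, with a difference of -0.07 (SE 0.21). In KO the Osm difference was 0.16 (SE 0.18). The adjusted p of these 4 tests ran from 0.42 to 0.838 (edgeR), and the ranges overlapped for both genes in both genotypes.

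Inhba varied more between libraries of 1 group than between groups. It was at 0.307, 1.05, 1.35, 2.94, 22.3 and 23.7 CPM in WT ns, and at 0.750, 0.751, 1.84, 2.33, 3.75 and 4.15 CPM in WT LPS. The WT difference was -1.95 (SE 0.96, edgeR, adjusted p = 0.127). Without WT ns 3 and WT ns 8, the 2 libraries at 23.7 and 22.3 CPM, it was 0.55 (SE 0.94, edgeR, adjusted p = 0.722), with the sign turned. In KO the Inhba difference was -0.15 (SE 0.82, edgeR, adjusted p = 0.919).

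Gdf15 and Bdnf had too few counts for the test in the LPS experiment. Gdf15 held 0 to 45 counts per library, at a median of 0.215 CPM in WT ns, 0.138 in WT LPS, 0.186 in KO ns and 0.073 in KO LPS. Bdnf held 0 to 4 counts and was at 0 in 4 of 6 WT ns, 4 of 6 WT LPS, 5 of 8 KO ns and 6 of 8 KO LPS samples. At this depth no difference in Bdnf was detectable.

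The WT result depends on the 4 libraries of number 2. With them kept under their labels, no member and no gene was called between LPS and ns in WT (0.0% of 15857 genes, edgeR, with 3605 genes at an unadjusted p under 0.05), and the Igf1 difference was -0.02 (SE 0.68). Igf1 was at 0.751 CPM in the library labelled WT ns 1 and at 1.20 CPM in that labelled WT ns 5. It was at 19.8 CPM in the library labelled WT LPS 1 and at 43.0 CPM in that labelled WT LPS 6, both above every other WT LPS sample. Hbegf was at 0.575 and 0.619 CPM in the 2 labelled ns, within the WT LPS range, and at 4.32 and 1.87 CPM in the 2 labelled LPS, the first within the WT ns range and the second between both ranges. The other 3 members differed between these libraries. In the library labelled WT LPS 1, Vegfa, Vegfb and Pdgfb were at 7.46, 41.2 and 266.0 CPM, within the WT ns ranges. In that labelled WT LPS 6, Vegfa and Pdgfb were at 2.57 and 137.6 CPM, within the WT LPS ranges of their label, and Vegfb was at 17 CPM, just above its WT LPS range. In that labelled WT ns 1 the 3 genes were at 1.90, 11.5 and 138.3 CPM, within the WT LPS ranges, and in that labelled WT ns 5 at 0.146, 2.18 and 27.01 CPM, under every other WT library. The libraries labelled WT LPS 6 and WT ns 5 were those with mitochondrial shares of 7.46% and 3.03%. The part of library quality in their levels was not tested. In KO, where no library was left out, the same 3 members were called with these WT libraries in the fit, beside 22.3% of all genes.

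The LPS libraries came in 2 sets, shown by the numbers of the library names, and each set held all 4 groups. In set 1 alone the 5 members named above were called lower in WT, and 4 (Igf1, Hbegf, Vegfb and Pdgfb) in KO, beside 22.6% and 23.4% of all genes called lower. In set 2 alone Igf1 was called in WT, and Igf1 and Hbegf in KO, beside 1.94% and 2.55% of all genes. The signs of the 5 members were the same in both sets and both genotypes. Igf1 was at -3.50 (SE 0.57) in WT of set 1 and -2.49 (SE 0.62) in WT of set 2. The 4 libraries of low correlation were all in set 2.

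Marker sums of other cells differed between LPS and ns beside these results. The summed microglia markers were 24710 to 44040 CPM in WT ns and 17430 to 26680 CPM in WT LPS, and 36280 to 53370 CPM in KO ns and 22420 to 28440 CPM in KO LPS. The sum of 10 endothelial and mural markers was 63.9 to 86.3 CPM in WT ns and 21.6 to 65.7 CPM in WT LPS, and 75.7 to 121.6 CPM in KO ns and 30.9 to 80.1 CPM in KO LPS. The sum of 9 border macrophage markers had a median of 569.9 CPM in WT ns, 254.7 in WT LPS, 543.9 in KO ns and 274.3 in KO LPS. Outside the WT libraries of number 2, WT ns 8 was highest of WT ns in this sum and in Igf1, at 983.7 and 18.6 CPM. WT ns 4 was lowest in both, at 334.9 and 6.23 CPM. Of WT LPS, WT LPS 5 was highest in both, at 579.3 and 4.65 CPM. WT LPS 2 was lowest in both, at 181.1 and 0.204 CPM. In KO ns the highest sum was in KO ns 8 and the highest Igf1 in KO ns 6. The sum of 8 oligodendrocyte lineage markers was 108.2 to 122.1 CPM in WT ns and 59.7 to 85.6 CPM in WT LPS, with no overlap, and 69.8 to 114.4 CPM in KO ns and 25.7 to 88.3 CPM in KO LPS. The sum of 7 astrocyte markers was 117.8 to 180.7 CPM in WT ns and 113.8 to 143.7 CPM in WT LPS, and 217.9 to 334.8 CPM in KO ns and 133.8 to 224.6 CPM in KO LPS. The median sums of 10 lymphocyte and 8 neuron markers were lower with LPS in both genotypes, with overlapping ranges. The median sum of 9 monocyte markers was higher with LPS. It was 450.3 CPM in WT ns, 621.5 in WT LPS, 205.0 in KO ns and 496.8 in KO LPS. For 10 neutrophil markers the medians were 4202 CPM in WT ns, 3627 in WT LPS, 2476 in KO ns and 3362 in KO LPS. The ranges of both sums overlapped between LPS and ns in each genotype. Every marker of these lists was detected in each of the 4 groups. Their part in the lower Igf1, Hbegf, Vegfa, Vegfb and Pdgfb was not tested.

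**Figure D2:**
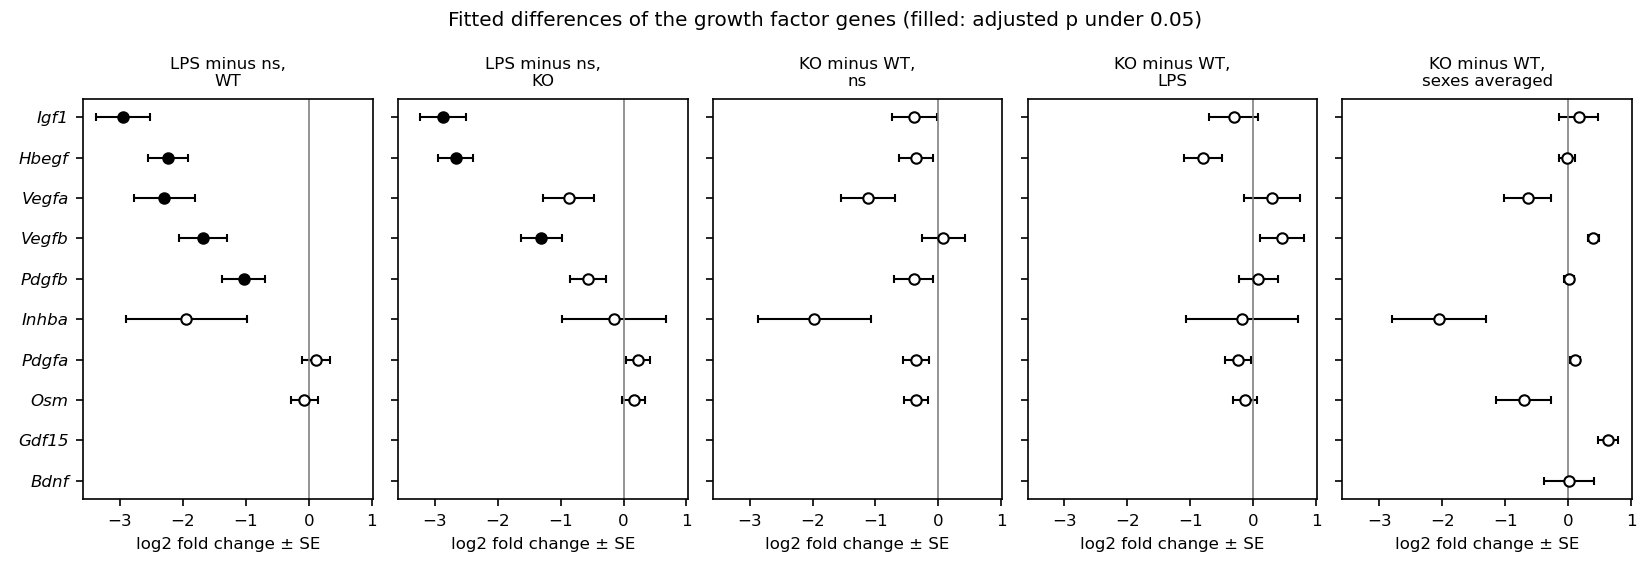
Log2 fold change of each member, with its SE as bars, in 5 comparisons. Filled points have an adjusted p under 0.05 in edgeR, open points do not, and Gdf15 and Bdnf have no point in the 4 comparisons of the LPS experiment. The 5 filled points of the WT and the 3 of the KO response to LPS lie left of 0, and no genotype difference is filled.

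The second question was whether the members differed between KO and WT within a treatment. None was called with ns, where 15 of 16088 genes (0.0932%) were called by edgeR, or with LPS, where 11 genes (0.0684%) were called. At an unadjusted p under 0.05 the counts were 1505 and 1026 genes, and DESeq2 called 50 and 57 genes and no member. With the WT libraries of number 2 kept, 0.114% of genes and no member were called with ns, and 0.126% of genes and no member with LPS. The test of whether the LPS response differed between genotypes called no gene (0.0%, with 795 genes at an unadjusted p under 0.05 and 3 genes called by DESeq2), and again none (0.0%) with those libraries kept.

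Among the ns libraries the members with the lowest unadjusted p were Vegfa and Inhba. Vegfa had a median of 7.43 CPM in WT ns and 3.65 CPM in KO ns, a difference of -1.12 on the log2 scale (SE 0.43, edgeR, adjusted p = 0.456). Inhba had a median of 2.15 CPM in WT ns and 0.9502 CPM in KO ns, with a difference of -1.97 (SE 0.90, edgeR, adjusted p = 0.515). Without WT ns 3 and WT ns 8 the Vegfa difference was -0.68 (SE 0.47) and the Inhba difference turned to 0.54 (SE 0.94). With LPS, Hbegf was at -0.79 (SE 0.30, edgeR, adjusted p = 0.605), and at -0.45 (SE 0.26) without the libraries of low correlation. With the WT libraries of number 2 kept, Igf1 with LPS was at -2.86 (SE 0.75, edgeR, adjusted p = 0.171), against -0.31 (SE 0.39) without them.

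The sex experiment asked whether KO and WT differed in untreated males and females. No member was called with the sexes averaged, where 137 of 31709 genes (0.432%) were called by edgeR, in males (3 genes, 0.00946%) or in females (52 genes, 0.164%). At an unadjusted p under 0.05 the counts of all genes were 2860, 2171 and 1655. DESeq2 called 2 members with the sexes averaged, Vegfb and Gdf15, among 358 genes. The test of a sex-by-genotype difference called no gene (0.0%, with 879 genes at an unadjusted p under 0.05 and none called by DESeq2).

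Vegfb was the member nearest to the threshold. It was at 15.0, 21.3, 21.9 and 24.7 CPM in male WT and at 23.5, 25.5, 26.9, 27.1 and 30.5 CPM in male KO. In females it was at 16.9, 19.5, 20.9 and 22.7 CPM in WT and at 23.6, 25.3, 25.7, 29.1 and 31.2 CPM in KO. Every female KO value lay above every female WT value, and in males the highest WT value lay above the lowest KO value. How many of all genes lay apart in this way was not counted in the sex experiment. The log2 fold change with the sexes averaged was 0.40 (SE 0.09), or 1.32-fold higher in KO (edgeR, unadjusted p = 0.00022, adjusted p = 0.0504). The lowest values of the 18 animals were those of male WT 5 and female WT 2, at 15.0 and 16.9 CPM, which were also the animals highest in neutrophil markers. Without these 2 animals the difference was 0.30 (SE 0.07, edgeR, adjusted p = 0.034), so the fold was smaller and the call passed. The sum of 7 astrocyte markers was 158.3 to 242.5 CPM in male WT, 271.2 to 342.4 in male KO, 162.0 to 326.6 in female WT and 235.4 to 344.7 in female KO. The median endothelial and mural sum was 79.08 and 90.24 CPM in male WT and KO, and 81.8 and 103.0 CPM in female WT and KO. The median microglia, border macrophage and oligodendrocyte lineage sums were lower in KO in both sexes. The part of other cells in the difference was not tested. Vegfb was also called without male WT 5 alone, without male WT 1 alone, and with other filters or DESeq2, as given in the closing section. In the other experiment the difference between KO ns and WT ns was 0.08 (SE 0.35, edgeR, adjusted p = 0.908).

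Vegfb spans chr19:6959840-6965019 on the minus strand (GRCm39), and Gm54053, on the plus strand, overlaps it. Gm54053 held 54.5% as many counts as Vegfb in the sex experiment. It was itself called higher in KO, at 0.39 (SE 0.07, edgeR, adjusted p = 0.0157). Strand-specific counting was not given in the sources used here, so reads of the 2 genes cannot be told apart. Gm54053 was not in the table of the LPS experiment.

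Gdf15 was not called either, with a difference of the same sign in both sexes. It was at 0.445, 0.449, 0.484 and 0.544 CPM in male WT and at 0.716, 0.722, 0.785, 0.826 and 0.930 CPM in male KO. All male KO values lay above all male WT values, again with no count over all genes to set beside it. In females it was at 0.517, 0.540, 0.583 and 0.697 CPM in WT and at 0.624, 0.796, 0.799, 1.01 and 1.02 CPM in KO, where the lowest KO value lay under the highest WT value. The log2 fold change with the sexes averaged was 0.63 (SE 0.16), or 1.55-fold (edgeR, unadjusted p = 0.00071, adjusted p = 0.0966; DESeq2, adjusted p = 0.00096). The part of other cells in the Gdf15 difference was not tested. These values rest on 26 to 188 counts per animal. Even numbers made up 79.0% to 89.2% of the low counts per library in the sex experiment and 39.7% to 45.6% in the LPS experiment, so a count may not stand for 1 fragment.

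**Figure D3:**
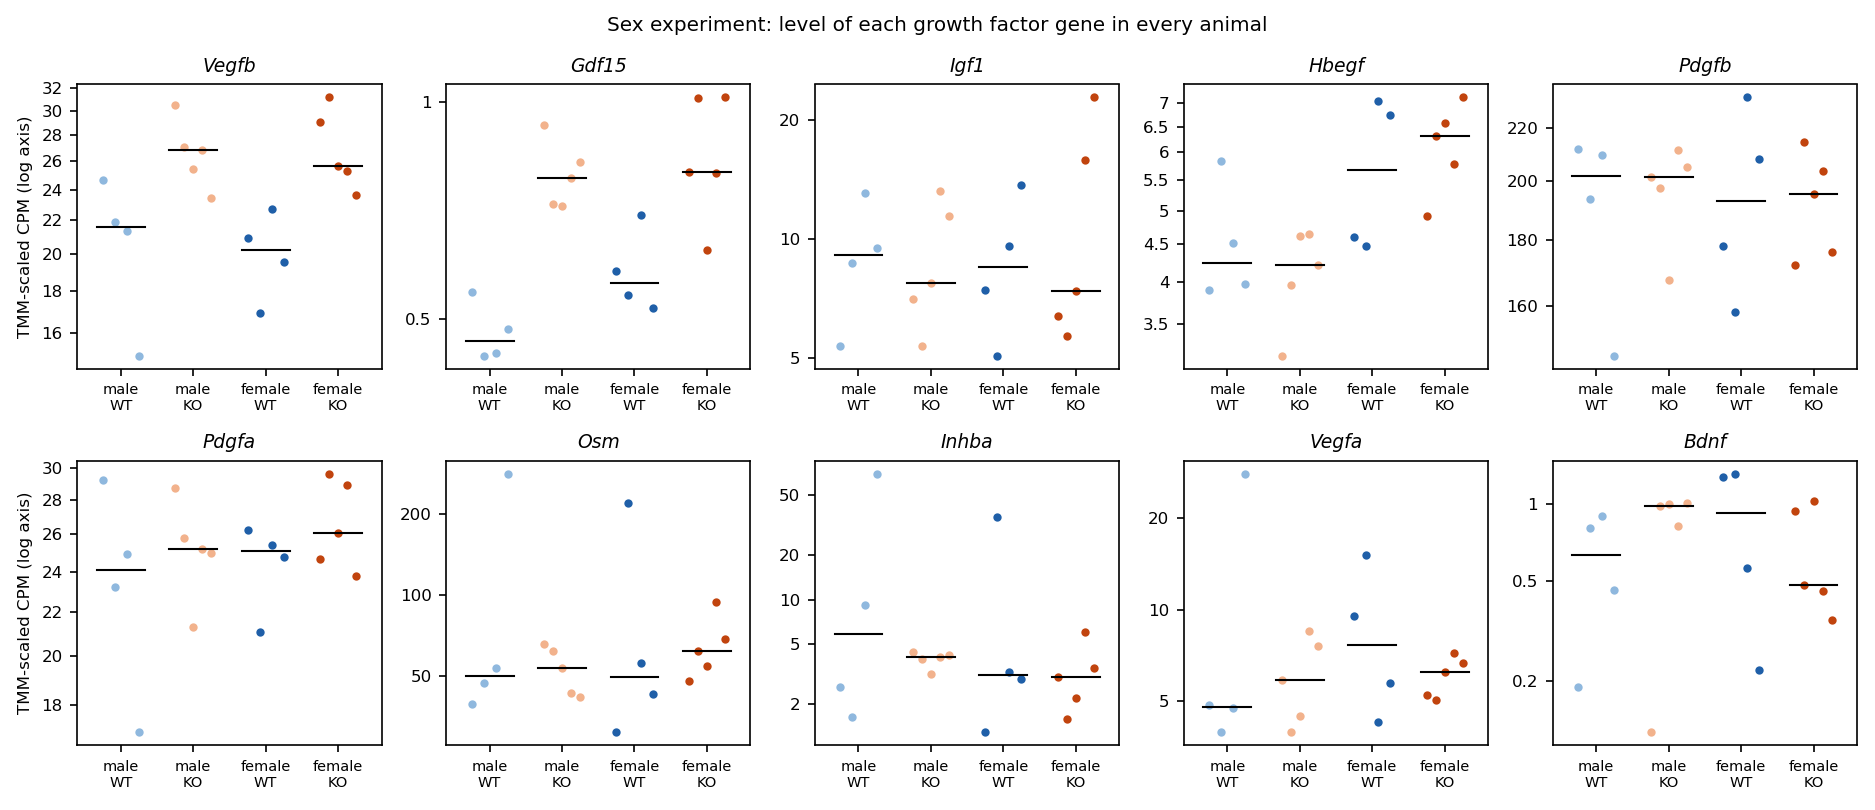
Level of each member in every animal of the sex experiment, as TMM-scaled CPM on a log axis, by sex and genotype, with a line at the median. For Gdf15 in males and Vegfb in females the KO points lie above the WT points with no overlap. How many of all genes do so was not counted. For Osm, Inhba and Vegfa the highest point of each WT group lies above all KO points.

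Igf1, Hbegf, Pdgfa, Pdgfb and Bdnf were not called between genotypes in the sex experiment, and their differences were smaller than or close to their errors. With the sexes averaged, Igf1 was at 0.17 (SE 0.31), Hbegf at -0.02 (SE 0.12) and Bdnf at 0.02 (SE 0.40). Pdgfa was at 0.11 (SE 0.09) and Pdgfb at 0.02 (SE 0.08), the narrowest errors of the members. Their ranges overlapped in both sexes. Igf1 varied between 5.08 and 22.9 CPM over the 18 animals, Hbegf between 3.17 and 7.13, Pdgfa between 16.98 and 29.62, Pdgfb between 146.3 and 232.6, and Bdnf between 0.126 and 1.32. Pdgfa and Pdgfb were lowest in male WT 5, at 16.98 and 146.3 CPM, and next lowest in female WT 2, at 21.1 and 158.3 CPM. Igf1 overlaps Igf1os on the opposite strand, which held 17.03% as many counts. The sum of 9 border macrophage markers was highest in female KO 5 and female KO 4, at 1195 and 926.4 CPM. The same animals were highest in Igf1, at 22.9 and 15.9 CPM. Male WT 5, next in that sum at 671.8 CPM, held 9.53 CPM of Igf1. Male WT 1, lowest in that sum at 218.8 CPM, held 5.36 CPM. The part of these cells in the Igf1 levels was not tested.

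Osm, Inhba and Vegfa rested on 2 WT animals. In male WT, Osm was at 39.2, 46.9, 53.2 and 282.6 CPM, and the highest was male WT 5. In female WT it was at 30.8, 42.8, 55.7 and 220.8 CPM, and the highest was female WT 2. The KO animals ranged from 41.5 to 93.9 CPM. The same 2 animals held 69.6 and 35.7 CPM of Inhba, against 1.29 to 9.18 CPM in the other 16. They also held 28.02 and 15.1 CPM of Vegfa, against 3.95 to 9.54 CPM in the other 16. With the sexes averaged, the differences were -0.71 (SE 0.44) for Osm, -2.05 (SE 0.74) for Inhba and -0.64 (SE 0.38) for Vegfa, and none was called (edgeR, adjusted p = 0.713, 0.468 and 0.681). Without these 2 animals the signs turned, to 0.40 (SE 0.18), 0.10 (SE 0.37) and 0.17 (SE 0.18).

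Neutrophil markers were also highest in these 2 animals. The sum of 10 neutrophil markers was 49740 CPM in male WT 5 and 29970 CPM in female WT 2, against 1472 to 8545 CPM in the other 16 animals. Their microglia marker sums, 23940 and 24690 CPM, were the lowest of the 18 animals, and their sums of 9 monocyte markers were 4308 and 2550 CPM, against 162.9 to 774.8 CPM in the others. Every listed neutrophil and monocyte marker was detected in each group. The next animals in the neutrophil sum, male WT 4 at 8545 CPM and female KO 4 at 6259 CPM, were also next in Inhba, at 9.18 and 6.03 CPM. Female WT 1, lowest in the neutrophil sum, was lowest in Inhba at 1.29 CPM and in Osm at 30.8 CPM. Outside the 2 animals Vegfa did not follow this order, since female WT 1 was next highest in Vegfa at 9.54 CPM and male WT 4 was at 4.75 CPM, under the median of 5.49 CPM of the other 16. Osm in male WT 4, at 53.18 CPM, was also close to that group's median of 53.41 CPM. Inhba overlaps B230303A05Rik on the opposite strand, which held 108.3% as many counts.

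Of the ns libraries of the LPS experiment, WT ns 3 and WT ns 8 were highest in both the neutrophil sum and Inhba. WT ns 3 and WT ns 8 had neutrophil sums of 18880 and 17630 CPM, Inhba levels of 23.7 and 22.3 CPM and Vegfa levels of 14.9 and 12.2 CPM. The other 12 ns samples had neutrophil sums of 1078 to 10290 CPM, Inhba levels of 0.139 to 8.83 CPM and Vegfa levels of 0.603 to 7.43 CPM. Among these 12, Inhba did not follow the order of the sum. KO ns 6, at 10290 CPM, held 2.71 CPM of Inhba. KO ns 4 and KO ns 1, at 9154 and 7832 CPM, held 7.78 and 8.83 CPM. Osm was at 26.5 and 27.5 CPM in WT ns 3 and WT ns 8 and at 9.85 to 22.3 CPM in the other 12. WT LPS 7 had a neutrophil sum of 13710 CPM with 4.15 CPM of Inhba and 1.12 CPM of Vegfa. The part of other CD11b-positive cells in these levels was not tested. Without WT ns 3 and WT ns 8, the same 5 members were called lower with LPS in WT, beside 2057 of 16455 genes called lower. Vegfa was among them at -1.86 (SE 0.51, edgeR, adjusted p = 0.0090).

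**Figure D4:**
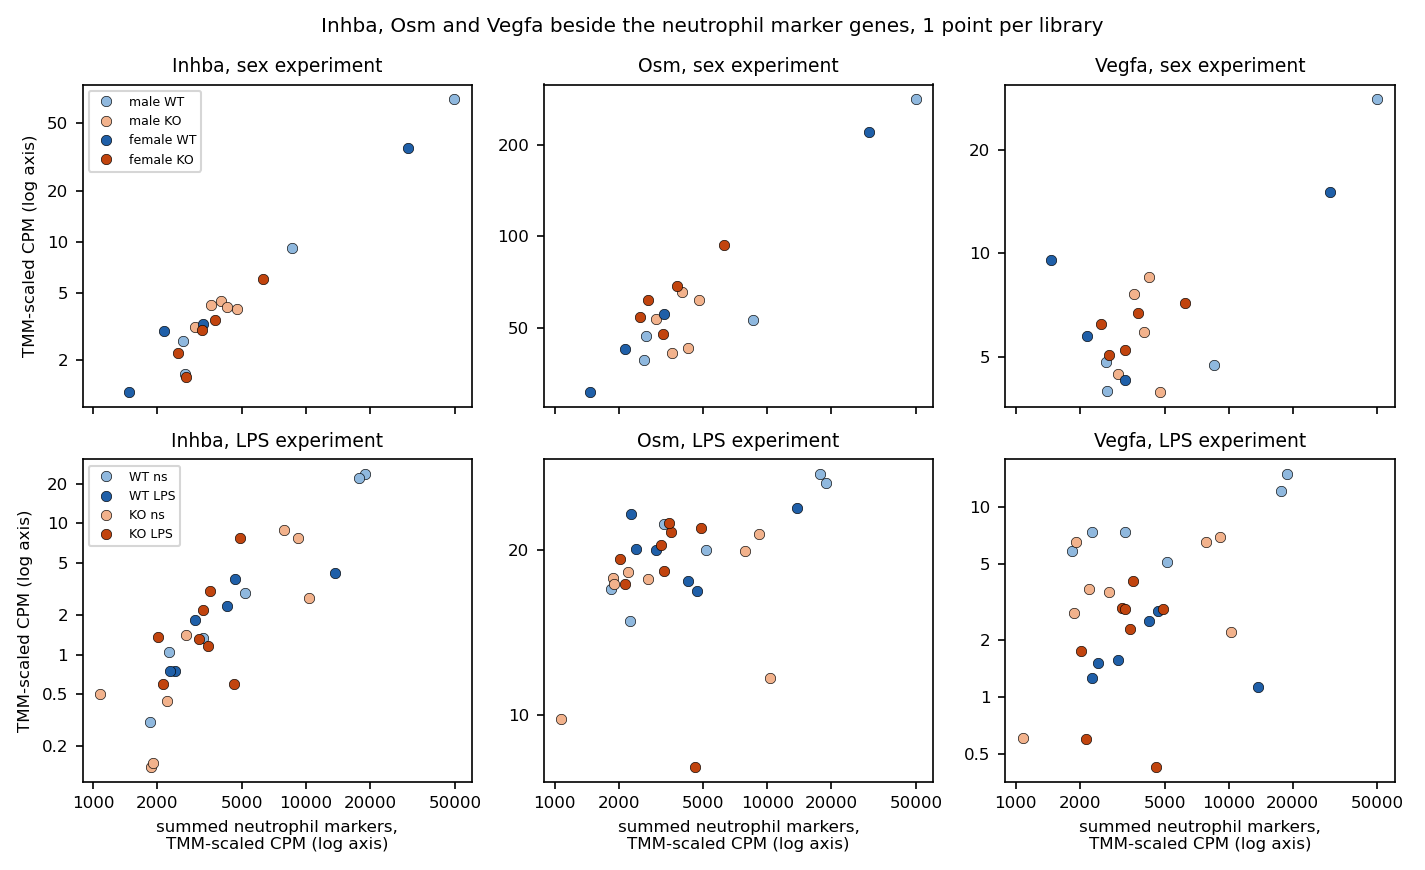
Level of Inhba, Osm and Vegfa against the summed level of 10 neutrophil marker genes, both as TMM-scaled CPM on log axes, with 1 point per library, in the sex experiment (top) and the LPS experiment (bottom, without the 4 WT libraries of number 2). The 2 WT animals with sums of 49740 and 29970 CPM are the highest for all 3 genes in the sex experiment, and WT ns 3 and WT ns 8 are the highest for all 3 in the LPS experiment.

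Other genes of the same signalling systems were taken from 3 lists. Of 25 receptor genes, 17 were tested in the LPS experiment: 1 was called higher and 3 lower with LPS in WT, and none higher and 2 lower in KO. These 4 and 2 of 17 lie under the share of all genes called, 30.9% in WT and 28.9% in KO. The receptor list's median log2 fold change was -0.29 in WT and -0.14 in KO. Kdr, the main signalling receptor of Vegfa and an endothelial marker, was 5.86-fold lower in WT (log2 -2.55, SE 0.44) and 4.06-fold lower in KO (log2 -2.02, SE 0.37). Acvr2b, a receptor of activins, was 2.76-fold lower in WT and 2.01-fold lower in KO.

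Of 26 binding proteins, inhibitors and processing enzymes, 13 were tested. In WT 3 were called higher and 1 lower, and in KO 2 higher and 2 lower, with list medians of 0.18 and 0.37. These 4 of 13 in each genotype are close to the shares of all genes, 30.9% and 28.9%. Igfbp6, which binds insulin-like growth factors with a preference for the second of them, rose from 0.514 ± 0.201 CPM (SD, n = 6) to 5.01 ± 2.86 CPM (SD, n = 6) in WT and from 0.360 ± 0.289 CPM (SD, n = 8) to 5.56 ± 1.88 CPM (SD, n = 8) in KO. Its log2 fold changes were 3.27 (SE 0.40) and 4.05 (SE 0.36). Igfbp4, another of these binding proteins, was 4.87-fold lower in WT and 3.41-fold lower in KO. Adam10, a sheddase of membrane-anchored ligands, was 1.42-fold higher in WT and 1.44-fold higher in KO.

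Of 35 other trophic ligands, 14 were tested, with 2 called higher and 4 lower in WT and 3 higher and 5 lower in KO. The list medians were -0.29 and -0.41. The 6 and 8 of 14 called stand beside 30.9% and 28.9% of all genes. Pdgfc, a further platelet-derived growth factor, was 7.01-fold lower in WT and 7.06-fold lower in KO. Clcf1, a cytokine of the ciliary neurotrophic factor receptor, was 5.13-fold and 3.59-fold lower. Spp1, which encodes osteopontin, was 6.93-fold higher in WT (log2 2.79, SE 0.55) and 4.04-fold higher in KO (log2 2.02, SE 0.47). Manf, a factor of the stressed endoplasmic reticulum, was 3.45-fold and 2.42-fold higher. The adjusted p of the genes named from the 3 lists ran from 2.8e-09 for Igfbp6 in KO to 0.035 for Adam10 in WT (edgeR). In the genotype comparisons of both experiments, none of the genes on these 3 lists was called by edgeR.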

How the data were processed

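Poly(A) RNA-seq counts were analysed for 18 animals of the sex experiment and 33 libraries of the LPS experiment. The deposited values are raw read counts per gene, made by the authors with STAR 2.6.1, featureCounts and GRCm39, per the submitters' processing notes. The strand setting of the counting was not given in the sources used here. The labels also list 6 repeat libraries of the sex experiment, for which the table has no separate column.

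The members, gene lists, markers and alternatives were chosen with earlier results of these data known. The named genes are the 10 members, P2ry12, Saa3 and, from each of the 3 lists of related genes, up to 4 genes called in 1 direction by LPS in both genotypes. Genes overlapping a member on the other strand were named after their counts were seen.

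In R 4.3.3, genes were filtered with filterByExpr (minimum count 10), scaled by TMM and tested with edgeR 4.0.16 (quasi-likelihood test, robust, with limma 3.58.1) and Benjamini-Hochberg adjustment. This left 31709 genes with 10 members in the sex experiment and 16088 genes with 8 members in the LPS experiment. The fit had a mean per group and, in the LPS experiment, a term for the library set, read from the library names. The SE of a log2 fold change was taken from its F statistic. DESeq2 1.42.0 was an alternative, beside other filters, RLE scaling, left-out libraries and single sets. The code was tested on simulated data. The 4 WT libraries of number 2 were left out and WT LPS 8 and WT LPS 9 summed, which gave 28 samples.

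Libraries are taken as separate samples of their group. Where the labels do not say that they came from separate animals, the p-values measure only the spread between these samples, which may be technical. Counts of PCR reads are not independent molecules, so low counts limit the precision for Igf1, Hbegf, Gdf15 and Bdnf.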

Additional observations from a re-analysis of the deposited data

Results flagged for a closer look

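In 73 member-by-group sets of 4 to 8 libraries, the gap between the highest or lowest library and its neighbour was set against the whole range of the group, and 11 sets had a library past the 95% critical value. Chance gives about 1 in 20 such sets if values are normally distributed and the sets are independent. The first was not checked, and the same libraries recur across sets. The 11 of 73 can therefore not be measured against that rate.

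Of these, 5 came from male WT 5 and female WT 2, the animals highest in neutrophil markers. Male WT 5 was at 28.02 CPM for Vegfa (the other male WT at 3.968 to 4.842 CPM), at 282.6 CPM for Osm (39.19 to 53.18 CPM) and at 69.55 CPM for Inhba (1.642 to 9.183 CPM). Female WT 2 was at 220.8 CPM for Osm (the other female WT at 30.8 to 55.7 CPM) and at 35.71 CPM for Inhba (1.292 to 3.262 CPM). Male KO 1 was low for Bdnf, at 0.1261 CPM, with the other male KO at 0.8211 to 1.011 CPM.

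In the LPS experiment KO LPS 5 was low for Vegfb, at 4.005 CPM (15.76 to 21.6 CPM in the other KO LPS libraries), and for Osm, at 8.052 CPM (17.3 to 22.4 CPM). WT LPS 7 was high for Hbegf, at 1.546 CPM (0.5056 to 0.8856 CPM in the others). These 2 libraries were among the 4 of low correlation with their group. WT ns 4, the deepest library, was high for Pdgfa, at 24.57 CPM (16.78 to 19.18 CPM). KO LPS 1 was high for Inhba, at 7.772 CPM (0.5964 to 3.026 CPM).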

How the results depend on the processing

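With the sexes averaged no member was called between KO and WT in the main fit. Vegfb alone (1 member) was called with no filter on low counts, beside 174 of 44223 genes. The same held with a mean of at least 5 CPM, beside 193 of 12394 genes. It held as well without the 2 WT animals high in neutrophil markers, beside 309 of 31895 genes. DESeq2 called 2 members, Vegfb and Gdf15. Leaving out 1 animal at a time gave 0 to 1 members, the 1 being Vegfb without male WT 5 or without male WT 1. The 5 members called lower with LPS in WT became 3 with a mean of at least 5 CPM, 1 in set 2 alone and 0 with the WT libraries of number 2 kept under their labels. The stricter filter left 5 members in the test, and with it 1629 of 10425 genes were called lower. Set 2 alone has fewer samples. The 3 members called in KO became 5 without the libraries of low correlation with their group. No called member changed direction under an alternative. The alternatives on left-out libraries of low correlation or high in neutrophil markers were chosen after seeing the data.

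With the replicate block, 84 genes and 0 members were called with the sexes averaged (137 genes without it). In females 5 genes were called (52 without it), and between KO and WT with LPS 32 genes (11 without it). For LPS against ns in KO, 4 members were called lower, Pdgfb being added, beside 3005 of 16088 genes called lower. The SE of Igf1 with the sexes averaged was 0.118 with the block and 0.309 without it, with no call in either. Deviations of same-numbered samples had a mean correlation of 0.225 (-0.202 to 0.376) in the sex experiment, against -0.0523 for other numbers, and of 0.254 (-0.313 to 0.889) in the LPS experiment, against 0.14. The means were higher for the same number, and not every pair was over 0.1. These correlations do not settle whether same-numbered samples belong together. The main fit did not take them as paired, and the block is given as an alternative.

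Counts over all genes moved more than those of the members. For KO against WT, DESeq2 called 358 genes with the sexes averaged, 27 in males, 210 in females, 50 with ns and 57 with LPS. Without the WT animals high in neutrophil markers 309 genes were called with the sexes averaged and 192 in females. In females 3 genes were called when the 2 groups were fitted alone and 96 with no filter. Leaving out 1 animal gave 54 (without male WT 4) to 279 genes (without male WT 5) with the sexes averaged and 5 (without female KO 4, female KO 5 or female WT 1) to 132 genes (without male WT 5) in females. With a mean of at least 5 CPM the counts were 6 in males, 5 with ns, 3 with LPS and 3063 for LPS in KO. Set 1 alone gave 7074 genes for LPS in KO and 29 for KO against WT with LPS, and set 2 alone 584 for LPS in WT, 784 for LPS in KO, 1 for KO against WT with ns and 0 with LPS. Without the libraries of low correlation the counts were 8701 for LPS in WT, 8809 for LPS in KO, 63 for KO against WT with ns and 46 with LPS. KO against WT with ns gave 7 genes without the 2 WT ns libraries high in neutrophil markers. KO against WT with LPS gave 17 genes with WT LPS 8 and 9 kept apart, 20 with the WT libraries of number 2 kept and 3 when the 2 groups were fitted alone.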

Other observations

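Bdnf and Gdf15 were detected more often in the sex experiment than in the LPS experiment, in tables that were scaled separately. Bdnf was at 0.126 to 1.32 CPM in all 18 animals of the sex experiment, and in the ns libraries of the LPS experiment it held 2 counts in all over WT and 6 over KO. The median depth was 92.04 megacounts per library in the sex experiment and 24.68 megacounts in the LPS experiment. Low counts were mostly even in the sex experiment only, and its deposited gene lengths are whole spans. The summed level of the immediate early genes, which rise within minutes of cell stress, was 3901 to 9826 CPM in the sex experiment and 380.3 to 1444 CPM over the LPS experiment. The relation of depth, counting or these genes to the Bdnf and Gdf15 levels was not tested.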
